A study of Mus musculus with 8 samples.

Results

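The 34 genes described here are a list drawn up around the transcription factor ATF4 and the supply of amino acids. It holds the factor itself and regulators around it, the enzymes of serine and one-carbon metabolism, and the enzymes that make asparagine, proline and alanine. It also holds genes of cysteine supply and transporters that bring amino acids into the cell. Whether ATF4 controls each of these genes in the cells studied was not tested. The genes were fixed by name, with earlier results of these data known. A gene was matched to the arrays only where the platform annotation gave its symbol alone to a probe set. In this way 30 of the 34 genes were found, with 57 probe sets, out of 17097 named genes and 45037 probe sets on the arrays. Pycr1, Got1 and Slc1a4 had no matching probe set, and the only probe sets for Mthfd2 were annotated to a further gene as well, so these 4 genes were not analysed here. Cth lay under the filter on low levels described below, which left 29 genes that were tested.

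ATF4 is a leucine zipper protein whose translation rises when the initiation factor eIF2 is phosphorylated, for example by a kinase that senses uncharged tRNA. It binds composite elements in the promoters of genes for amino acid uptake, amino acid synthesis and tRNA charging, and so couples supply to the demands of protein synthesis. Serine made by Phgdh, Psat1 and Psph feeds the folate cycle through the Shmt and Mthfd enzymes, and rapidly dividing blood and leukaemia cells draw on this route and on asparagine synthetase.

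The study used immortalized myeloid cells from bone marrow of C57BL/6 mice with the Rosa26-Cre-ERT2 knock-in, a Cre recombinase that 4-hydroxytamoxifen activates in all cells that carry it. All cells carried retroviral Hoxa9 and had been transformed together with a floxed Meis1 cDNA, and all grew with 10% serum and 5 ng/ml of the cytokine IL-3. One group of 4 arrays came from cells given 2 μM 4-hydroxytamoxifen, in which the Meis1 cDNA was deleted and Hoxa9 was kept (called Meis1 deleted below), and the other 4 arrays came from untreated cells with Hoxa9 and Meis1. The drug and active Cre were present in the deleted group alone, so their effects and that of losing Meis1 cannot be told apart. The labels do not say whether the 4 samples of a group were separate cultures or separate transformed lines, so p-values here reflect only how these samples scattered, and that scatter may be technical.

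Values are log2 expression levels, so a difference of 1 is a doubling. Levels given below as before the deletion are those of the untreated arrays with Hoxa9 and Meis1, and no time course was measured. Every change below is the mean of the Meis1 deleted arrays minus the mean of the arrays with Hoxa9 and Meis1, with limma's standard error (SE), and every p is limma's, adjusted over 11836 genes by the Benjamini-Hochberg method with a threshold of 0.05. Probe sets in the lowest 40% by mean level (under 4.29) were left out, and the remaining probe set with the highest mean stands for its gene. No level of a gene is set against that of another gene, since probes differ in how strongly they bind.

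A few facts of the arrays bear on these genes. The Meis1 probe sets did not check the deletion: the one above the filter was at 5.02 ± 0.07 (SD, n = 4 arrays) after the deletion and at 5.00 ± 0.05 before it, and whether the probes match sequence of the retrovirus is unknown. Meis1 deleted replicate 1 stood apart in RNA quality, with a Gapdh control that was 0.72 brighter at its 3′ than at its 5′ end, whereas this difference lay between -0.07 and 0.04 on the other 7 arrays. The bacterial bioB spike divided the arrays into 5 with a mean of 4.04 to 4.28 (3 of them Meis1 deleted) and 3 with 6.43 to 6.61 (1 of them Meis1 deleted). Results are therefore also given without replicate 1 and within these 2 sets where a call depended on them. All 6 genes of the myeloid granule and precursor list were above the filter, with group means from 7.72 (Kit) to 13.19 (Ctsg). Mpo and Ms4a3 rose (0.59 and 0.21), Elane and Prtn3 fell (-0.50 and -0.12), and the list's summed level overlapped between the groups. The B cell, T cell, and stromal and endothelial lists were low in both groups, with summed linear levels of 58.9 to 158 per list and array. Macrophage markers rose together with the deletion: 11 of 11 were higher, their summed linear level went from 2535 to 2713 in cells with Meis1 to 11030 to 11440, and 7 of 8 neutrophil markers rose too (24260 to 24790 against 14180 to 14870). Of the megakaryocyte list Pf4 alone rose, in 3 tested, and both tested mast cell and basophil genes fell. In such bulk samples fewer cells of a type and less RNA per cell cannot be told apart, and the part of this change in the results below was not tested.

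The promoters of these genes were read first, because a shared element is the usual way in which ATF4 reaches its targets. RefSeq windows on GRCm38.p6, from 250 bases before to 50 after the transcription start, were found for 30 of the 34 genes, and there were none for Slc7a5, Slc1a5, Eif4ebp1 and Cth. The C/EBP-ATF response element, searched as TGATGNAA on both strands, occurred in 8 of these 30 genes (26.7%) against 4.51% of all 27025 genes with a window. The list was drawn up around ATF4, so a share above that of all genes could follow from that choice alone. The carriers were Asns, Trib3, Chac1, Slc7a11, Nupr1, Got1, Pycr1 and Slc1a4. The stretches below come from the 5 carriers that were tested on the arrays. Of these 5, 4 fell after the deletion and 1 did not, where 18 of all 29 tested genes of the list fell and 17.5% of all genes did. A link between the element and the falls was not tested. Each stretch runs 5′ to 3′ on the strand of its gene, with the match in capitals.

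Asns, chr6:7693199-7693258, minus strand: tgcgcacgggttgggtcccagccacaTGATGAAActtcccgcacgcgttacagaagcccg
Trib3, chr2:152344013-152344072, minus strand: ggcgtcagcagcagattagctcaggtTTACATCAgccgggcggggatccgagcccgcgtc
Slc7a11, chr3:50443637-50443696, minus strand: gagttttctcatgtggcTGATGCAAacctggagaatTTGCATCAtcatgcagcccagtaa
Chac1, chr2:119351023-119351082, plus strand: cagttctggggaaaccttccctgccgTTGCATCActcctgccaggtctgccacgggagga
Nupr1, chr7:126625547-126625606, minus strand: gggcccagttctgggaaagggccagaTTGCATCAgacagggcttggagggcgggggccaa

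Counted from the transcription start, the match of Asns begins at position -23, that of Chac1 at -193 and that of Nupr1 at -110. Slc7a11 has 2 matches on opposite strands, at -66 and -47, and the match of Trib3 begins at 15, inside the transcript. Among the genes with a window, 4 of 15 that fell carried the element, as did 1 of 10 that did not pass the test, and 3 of the 4 that could not be tested. The palindrome TGACGTCA, the cyclic AMP response element, occurred in 1 of the 30 genes (Ppp1r15a, against 2.03% of all genes), and the E-box CACGTG in 4 (Aldh18a1, Cbs, Nupr1 and Xpot, against 8.09%). These are matches of letters in a short window, and binding was not measured.

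As a group the tested genes of this list were lower after the Meis1 deletion. Of the 29 genes tested, 18 fell and 1 rose, while 10 did not pass. Beside this, 35.5% of all 11836 genes passed the test, made up of 17.5% of all genes that were lower and 18.1% that were higher. Falls of at least 0.4 were seen for 14 of the 29, against 5.34% of all genes. The median change of the 29 was -0.30, beside -0.0044 for all genes. Because the list was chosen with earlier results of these data known, its distance from all genes is not independent of that choice. In every one of the 18 the fitted change was also below 0 within each bioB set taken alone. The 18 were picked on the same arrays, so this match of signs was nearly bound to follow and is no separate check. On single arrays, the median of the 29 genes relative to the mean of the cells with Meis1 lay between -0.39 and -0.34 on the 4 Meis1 deleted arrays and between -0.02 and 0.02 on the 4 others, so that the groups did not overlap. Within the bioB set of 5 arrays 13 of these 18 genes passed, beside 2114 of all 11836 genes in either direction. The 18 were picked with these 5 arrays included, so this share is no separate check either. The set of 3 holds 1 Meis1 deleted array, so its spread comes from 2 control arrays alone and its p-values below carry little weight. The median change of the 29 genes in that set was -0.42. The sizes were modest: only Gpt2 changed more than 2-fold.

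**Figure D1:**
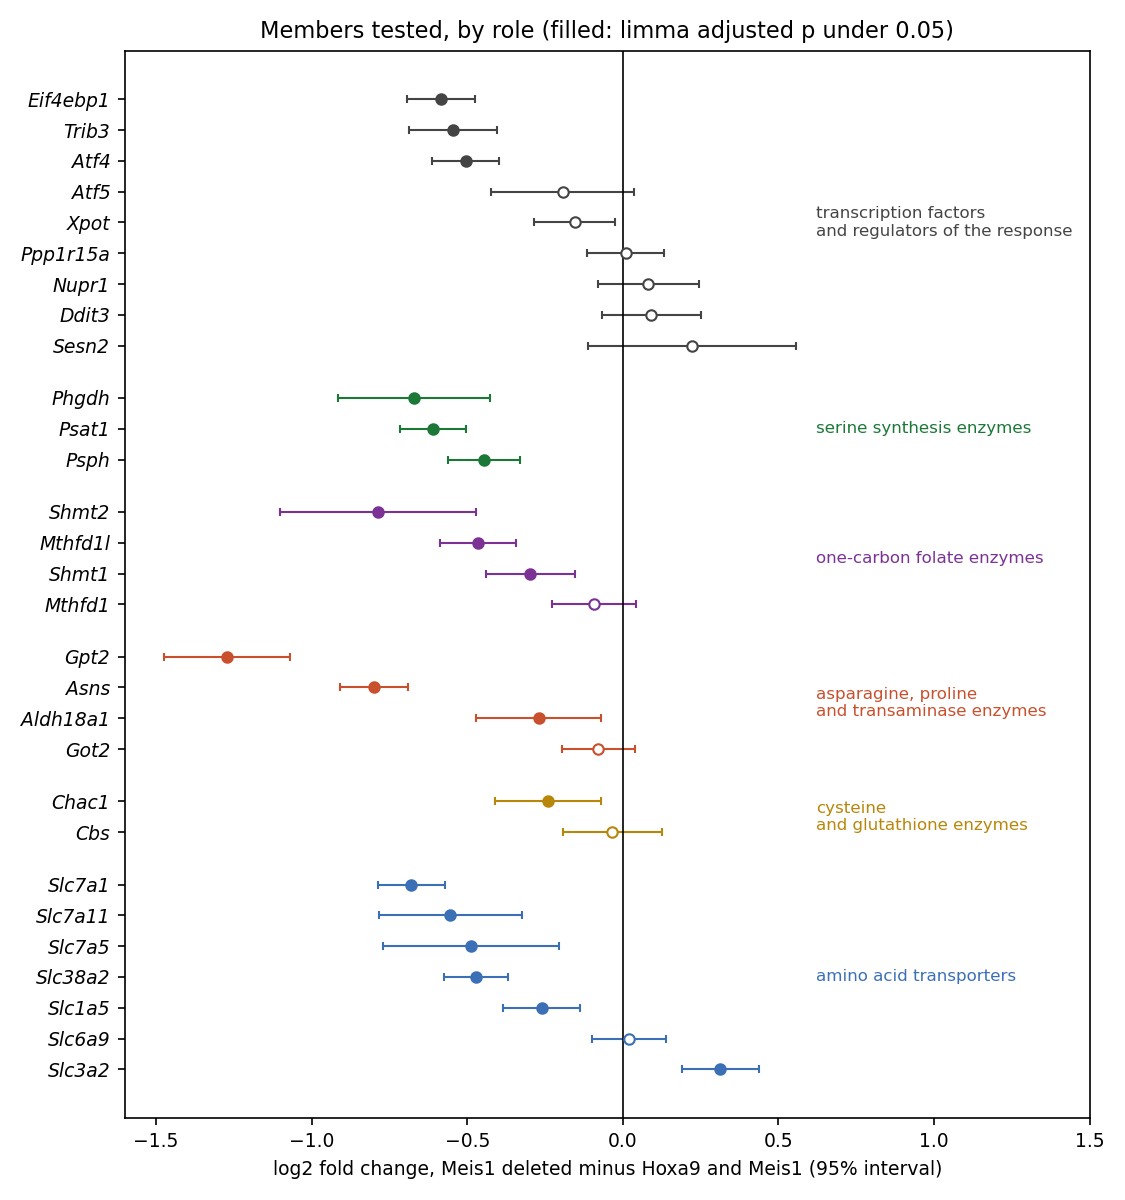
Log2 fold change (horizontal axis, Meis1 deleted minus Hoxa9 and Meis1) of each of the 29 tested genes, grouped and coloured by role, with 95% intervals from limma and filled points for an adjusted p under 0.05. The serine enzymes all lie between -0.67 and -0.44, while Ddit3, Nupr1 and Ppp1r15a lie within 0.1 of 0 and Slc3a2 is on the opposite side at 0.31.

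Atf4 itself was lower. It read 10.49, 10.62, 10.65 and 10.62 on the Meis1 deleted arrays and 11.08, 11.09, 11.11 and 11.12 on the arrays with Hoxa9 and Meis1. All deleted arrays lay below all others, and the change of -0.51 ± 0.05 (SE, adjusted p = 3.63e-05) corresponds to a level 1.42-fold lower. Since ATF4 is controlled largely through translation, its transcript gives only part of its activity. A further Atf4 probe set lay under the filter, at 3.42 to 3.91 over the 8 arrays, with groups that overlapped.

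Of the 9 regulators, Atf4 included, 3 fell and 6 did not pass. Trib3, a pseudokinase that ATF4 induces and that feeds back on it, read 5.32, 5.34, 5.25 and 5.13 after the deletion and 5.82, 5.90, 5.80 and 5.71 before it, without overlap (-0.55 ± 0.06, adjusted p = 1.30e-04). Its levels are low, and the change was -0.23 when an offset of 64 was added to the linear values. Eif4ebp1, which encodes the translational repressor 4E-BP1, read 9.76, 9.67, 9.79 and 9.66 against 10.25, 10.30, 10.35 and 10.32, again without overlap (-0.58 ± 0.05, adjusted p = 1.52e-05). The further Eif4ebp1 probe set overlapped between the groups and did not pass (-0.21 ± 0.09, adjusted p = 0.104 over probe sets).

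The regulators Ddit3, Ppp1r15a and Nupr1 differed by less than could be called, though other stress genes of the response, such as Trib3 above and Atf3 below, did pass. Ddit3, which encodes the death-associated factor CHOP, changed by 0.09 ± 0.07 (adjusted p = 0.358, 95% interval -0.07 to 0.25). Ppp1r15a, which encodes GADD34 and restores translation by dephosphorylating eIF2, changed by 0.01 ± 0.05 (adjusted p = 0.912, 95% interval -0.11 to 0.13). Nupr1, a small chromatin protein of stressed cells whose promoter carries the element shown above, changed by 0.08 ± 0.07 (adjusted p = 0.421, 95% interval -0.08 to 0.25). These intervals leave out falls of the size measured for Atf4.

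Atf5 and Sesn2 depended on the array with the poorer RNA. Atf5, a relative of ATF4, read 7.48 on Meis1 deleted replicate 1 but 7.05, 6.98 and 7.11 on the other deleted arrays, against 7.27, 7.42, 7.31 and 7.39. Its change was -0.19 ± 0.10 (adjusted p = 0.178) with all arrays, and -0.30 (adjusted p = 0.00212) without that replicate. Sesn2, a leucine sensor that restrains mTORC1, read 5.82 on that replicate and 6.47, 6.60 and 6.34 on the others, against 6.14, 6.16, 6.05 and 5.99 with Meis1. It changed by 0.22 ± 0.15 (adjusted p = 0.284) and by 0.39 without that replicate (adjusted p = 0.00209). A further Sesn2 probe set was higher on all 4 deleted arrays, at 6.05, 6.09, 6.15 and 6.09 against 5.86, 5.67, 5.81 and 5.82 (0.30 ± 0.05, adjusted p = 0.00196 over probe sets). Xpot, the exporter of tRNA from the nucleus, changed by -0.15 ± 0.06 and missed the threshold (adjusted p = 0.0653), but it passed in 8 of 23 alternatives, among them the bioB sets as a block (adjusted p = 0.0499). One of its further probe sets was lower without overlap (-0.20 ± 0.05, adjusted p = 0.00996 over probe sets) and another was level (-0.0034 ± 0.06).

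**Figure D2:**
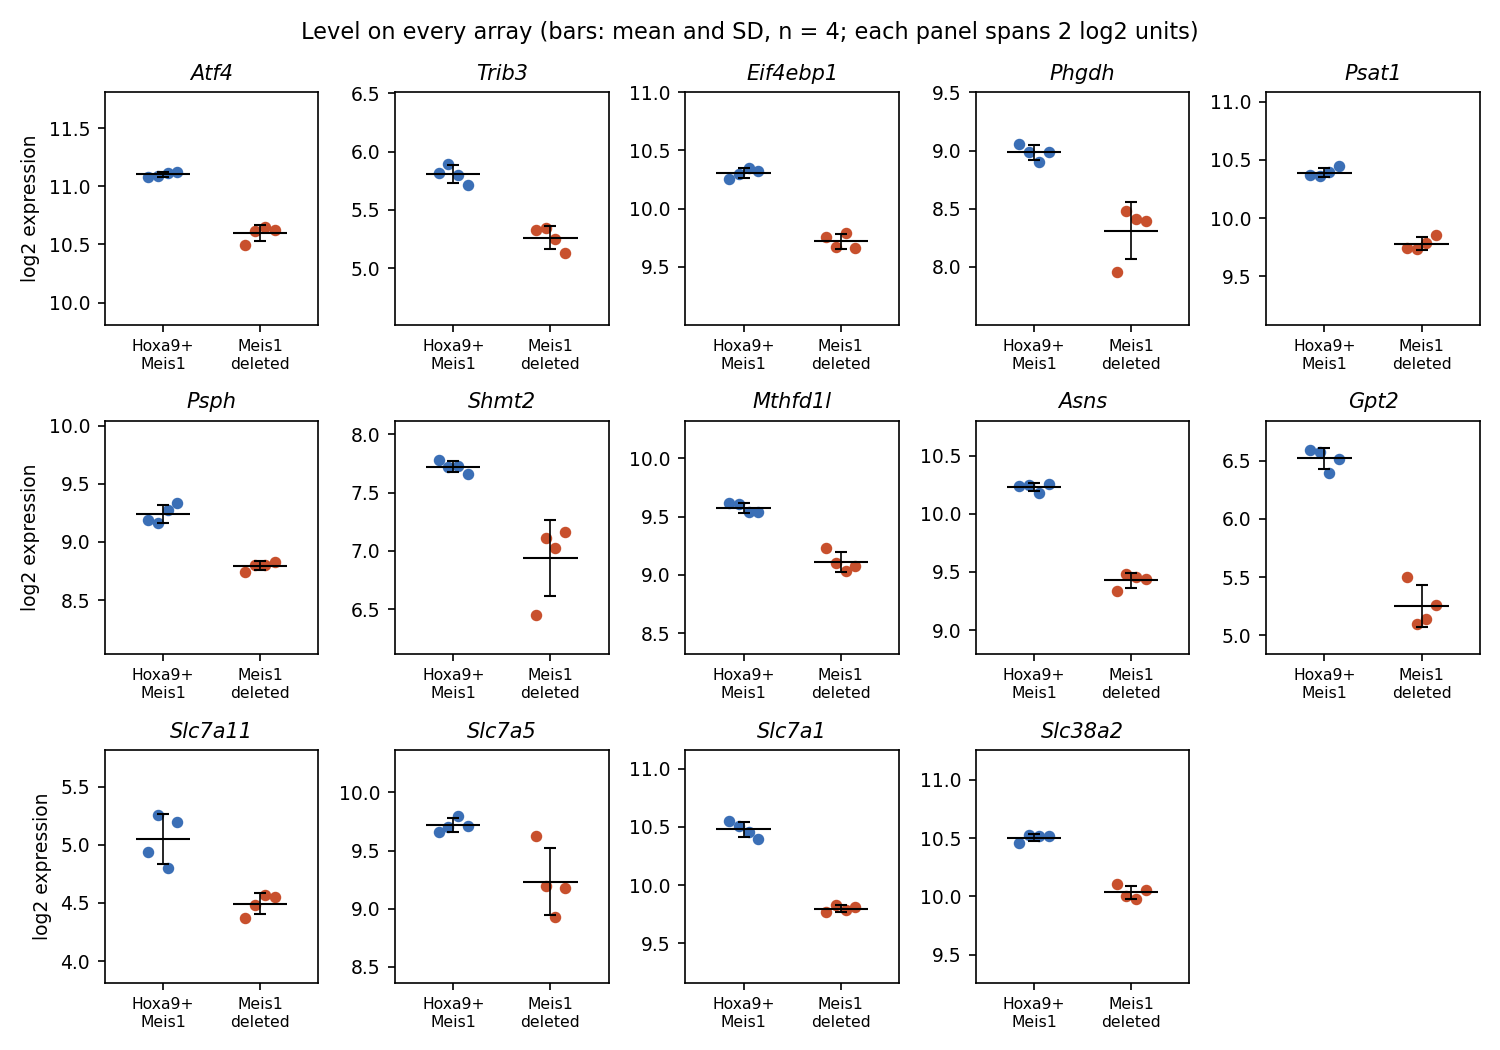
Log2 expression on each array (points, vertical axis) with Hoxa9 and Meis1 (blue) and Meis1 deleted (red) for Atf4 and the genes that passed the test with a change of at least 0.4, with bars for the mean and SD of 4 arrays. Every panel spans 2 log2 units, so the drops can be compared by eye; the low red points of Phgdh and Shmt2 and the high one of Slc7a5 are Meis1 deleted replicate 1.

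All 3 enzymes of serine synthesis fell. Phgdh, the dehydrogenase that opens the route from the glycolytic intermediate 3-phosphoglycerate, read 7.95, 8.48, 8.42 and 8.39 after the deletion and 9.05, 8.99, 8.90 and 8.99 before it (-0.67 ± 0.11, adjusted p = 0.00111). The aminotransferase Psat1 read 9.74, 9.73, 9.79 and 9.86 against 10.37, 10.36, 10.39 and 10.45 (-0.61 ± 0.05, adjusted p = 9.20e-06). The phosphatase Psph, which completes the route, read 8.75, 8.81, 8.80 and 8.83 against 9.19, 9.16, 9.28 and 9.33 (-0.44 ± 0.05, adjusted p = 1.36e-04). The groups were apart for each of the 3 genes. Without Meis1 deleted replicate 1, the lowest array for Phgdh its change was -0.55. Both Phgdh probe sets, both further ones of Shmt2, and those that stand for Gpt2, Aldh18a1, Xpot, Cbs and Nupr1 carry a suffix of the array design that marks probes which can match several transcripts.

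Of the 4 folate enzymes tested 3 fell. Shmt2, the mitochondrial enzyme that splits serine into glycine and a one-carbon unit, read 6.45, 7.11, 7.02 and 7.16 after the deletion and 7.78, 7.72, 7.73 and 7.66 before it (-0.79 ± 0.14, adjusted p = 0.00194). Its change was -0.63 without the low replicate 1, and -0.48 as the mean of its 3 probe sets, each of which was lower without overlap. The cytosolic Shmt1 fell by 0.30 (SE 0.06, adjusted p = 0.00540), from 8.46 to 8.54 down to 8.06 to 8.33. The adjusted p of Shmt1 was 0.0734 and 0.0816 within the bioB sets. Mthfd1l, which releases formate from mitochondria, read 9.23, 9.10, 9.04 and 9.07 against 9.62, 9.61, 9.54 and 9.54 (-0.47 ± 0.05, adjusted p = 1.42e-04). Mthfd1, the cytosolic enzyme with 3 activities of the same cycle, differed by less: -0.09 ± 0.06 (adjusted p = 0.272, 95% interval -0.23 to 0.04), and its further probe set by 0.08 ± 0.08.

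Gpt2 and Asns showed the largest falls. Gpt2, the mitochondrial alanine transaminase, read 5.50, 5.10, 5.14 and 5.26 after the deletion and 6.60, 6.58, 6.40 and 6.52 before it, which is 2.41-fold lower (-1.27 ± 0.09, adjusted p = 5.04e-06). Its 2 further probe sets were lower by less, at -0.71 ± 0.09 and -0.33 ± 0.09, each without overlap, and the change was -0.61 with an offset of 64 and -0.77 as the mean of the 3. Asns, which makes asparagine and carries the element shown above at position -23, read 9.33, 9.48, 9.46 and 9.44 against 10.24, 10.24, 10.18 and 10.25 (-0.80 ± 0.05, adjusted p = 1.65e-06). It is 1.74-fold lower, and its change lay between -0.82 and -0.75 in the 23 alternative analyses.

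The other enzymes of this group gave weaker results. Aldh18a1, which starts proline synthesis from glutamate, fell by 0.27 (SE 0.09, adjusted p = 0.0414), but Meis1 deleted replicate 1 read 6.80 and lay within the 6.71 to 6.90 of the cells with Meis1. The call was lost in 10 of 23 alternatives, among them the bioB sets as a block (adjusted p = 0.0673) and each array other than deleted replicate 1 left out in turn, while the further probe set of Aldh18a1 was lower without overlap (-0.38 ± 0.06, adjusted p = 0.00171 over probe sets). Got2, the mitochondrial aspartate transaminase, was nearly level at 10.96 to 11.10 against 11.04 to 11.15 (-0.08 ± 0.05, adjusted p = 0.280). A further Got2 probe set read 6.83 on deleted replicate 1 but 8.06, 8.18 and 8.10 on the other deleted arrays, against 8.29 to 8.48 (-0.60 ± 0.27, and -0.28 with an adjusted p of 0.00771 over probe sets without that replicate).

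Among the genes of cysteine and glutathione, Chac1, which degrades glutathione and is an ATF4 target with the element shown above, fell by 0.24 (SE 0.08, adjusted p = 0.0341). It read 6.21, 6.49, 6.53 and 6.27 against 6.57, 6.64, 6.59 and 6.65, and the call was lost in 7 of 23 alternatives, for example with a p of 0.290 within the bioB set of 5 arrays and 0.0881 without Meis1 deleted replicate 4. Cbs, which condenses serine with homocysteine, was near the filter at 4.74 to 5.02 in all samples and changed by -0.03 ± 0.07 (adjusted p = 0.749). Cth, the next enzyme of that route, was under the filter by its mean over the arrays. It read 3.67, 3.66, 3.70 and 3.69 after the deletion and 4.27, 4.33, 4.34 and 4.40 before it, so the groups did not overlap. With no filter its change was -0.65 ± 0.04 (adjusted p = 2.33e-06 over 17097 genes), at levels near the floor of the table where sizes are uncertain.

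Of the 7 tested transporters 5 fell and 1 rose. Slc7a1, the carrier of arginine and lysine, read 9.77, 9.83, 9.78 and 9.81 after the deletion and 10.55, 10.51, 10.45 and 10.40 before it (-0.68 ± 0.05, adjusted p = 4.88e-06). Slc38a2, a sodium-coupled carrier of small neutral amino acids whose gene answers to amino acid lack, read 10.11, 10.00, 9.98 and 10.05 against 10.46, 10.53, 10.52 and 10.52 (-0.47 ± 0.05, adjusted p = 4.56e-05). Both genes had a further well-measured probe set that was also lower without overlap, at -0.80 ± 0.08 for Slc7a1 and -0.43 ± 0.07 for Slc38a2. Each had another one at low levels: that of Slc7a1, at 4.38 to 4.70, was level (-0.0075 ± 0.07), and that of Slc38a2, at 4.67 to 5.01, was lower by less (-0.16 ± 0.05, adjusted p = 0.0459 over probe sets).

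Slc7a5 and Slc7a11 form transporters only in a complex with the shared heavy chain Slc3a2, and the 3 genes did not move the same way. Slc7a5, the light chain for leucine and other large neutral amino acids, read 9.62, 9.20, 8.93 and 9.17 after the deletion and 9.66, 9.70, 9.80 and 9.71 before it (-0.49 ± 0.13, adjusted p = 0.0143). The highest deleted array was replicate 1, and without it the change was -0.62 (adjusted p = 1.45e-04). Within the bioB set of 5 arrays, which holds replicate 1, the adjusted p was 0.215. Slc7a11, the light chain that imports cystine, read 4.37, 4.48, 4.57 and 4.55 against 4.94, 5.25, 4.80 and 5.20, low but without overlap (-0.55 ± 0.10, adjusted p = 0.00239). It was -0.17 with an offset of 64, and its adjusted p was 0.186 within the bioB set of 3 arrays.

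Slc3a2 was the single gene of the 29 that rose. It read 9.56, 9.50, 9.49 and 9.39 after the deletion and 9.20, 9.25, 9.08 and 9.16 before it, with all deleted arrays above all others (0.31 ± 0.06, adjusted p = 0.00186). Its change lay between 0.27 and 0.34 over the alternatives, and the adjusted p was 0.0792 within the bioB set of 3 arrays. The glutamine carrier Slc1a5 fell by 0.26 (SE 0.05, adjusted p = 0.00505), from 7.77 to 7.84 down to 7.44 to 7.66, with an adjusted p of 0.0845 and 0.0895 within the bioB sets. The glycine carrier Slc6a9 changed by 0.02 ± 0.05 (adjusted p = 0.800), while its further probe set was lower with overlapping groups (-0.36 ± 0.09, adjusted p = 0.0130 over probe sets).

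The 16 genes with at least 2 probe sets above the filter allow a comparison within genes, on the same RNA and arrays. Of their 24 further probe sets 21 pointed the same way as the one that stood for the gene. Some of the 24 belong to genes that had not passed, and 11 passed the test in the direction of a gene that had passed. This agreement was not set beside that of all genes. In all, 31 of the 53 probe sets above the filter were called lower and 2 higher, where 17.1% of all 27022 probe sets were lower and 14.2% higher. Meis1 deleted replicate 1 read about 1 log2 unit under the other deleted arrays on the further probe sets of Got2 (above), Shmt1 (5.32 against 6.05 to 6.32) and Slc1a5 (5.31 against 6.20 to 6.34). Without it, 19 genes fell, which include all 18 found with it.

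**Figure D3:**
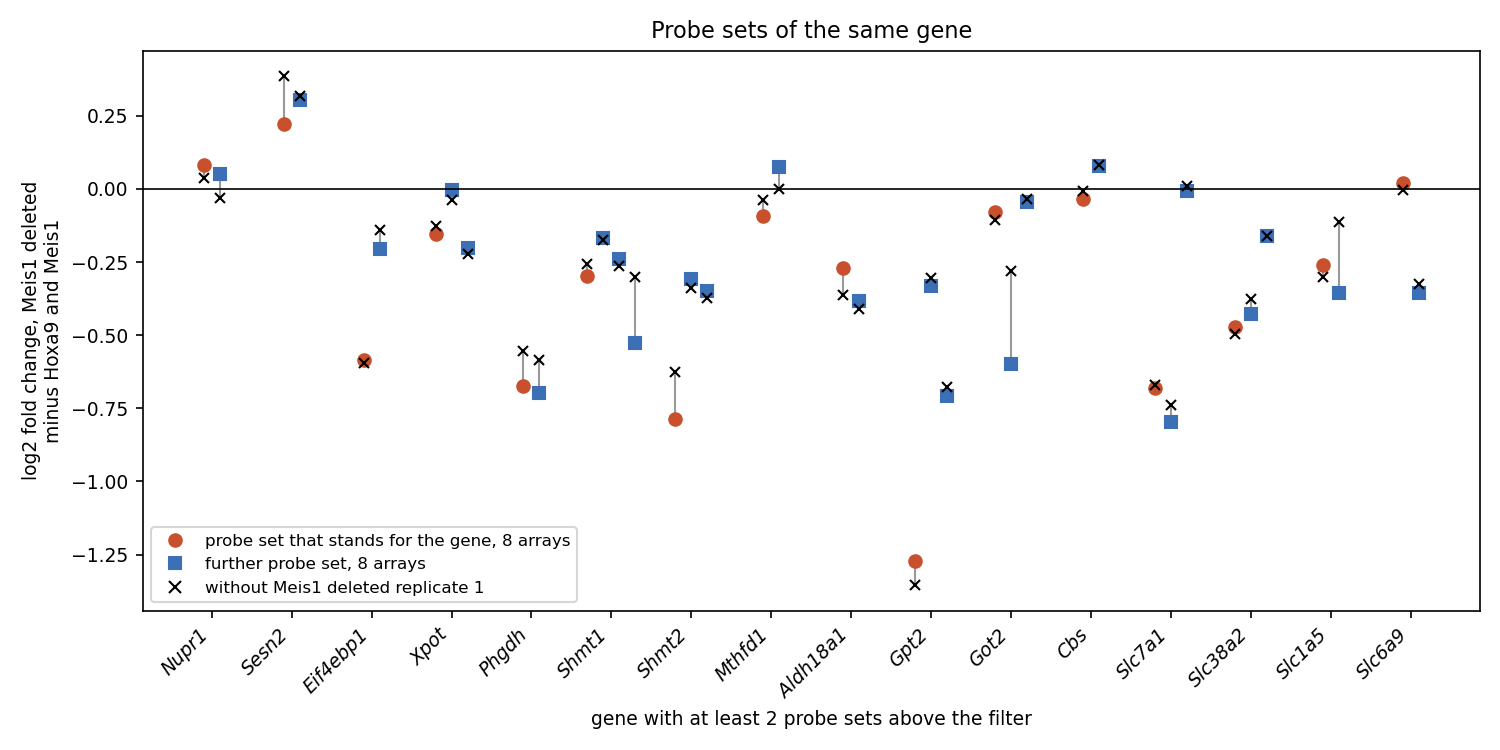
Log2 fold change (vertical axis) of each probe set above the filter for the 16 genes with at least 2, as the one that stands for the gene (red circles) or a further one (blue squares), joined to its value without Meis1 deleted replicate 1 (crosses). The longest joins belong to probe sets of Got2, Shmt1, Slc1a5, Shmt2 and Sesn2.

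Related genes from lists outside the 34 are given by their counts, to be read beside the 17.5% of all genes that fell and the 18.1% that rose, and no list was tested against the 34. Among other partners and response genes of ATF4, 4 of 8 fell and 2 rose. Ddit4, an inhibitor of mTORC1, fell from 7.58 to 6.68 (-0.90 ± 0.07, adjusted p = 6.32e-06), Stc2, a secreted glycoprotein of the response, by 0.77 (SE 0.06, adjusted p = 1.71e-05), and Cebpg, which dimerizes with ATF4, by 0.43 (SE 0.05, adjusted p = 1.75e-04). In the opposite direction went Atf3 (1.43 ± 0.08, adjusted p = 7.08e-07), a factor with many other inducers, and the growth arrest gene Gadd45a (0.73 ± 0.08, adjusted p = 1.27e-04).

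Of the cytosolic aminoacyl-tRNA synthetases, which charge tRNAs and are commonly listed as ATF4 targets, 4 of 17 fell and 0 rose, near the background for falls of 17.5%. Mars1 fell by 0.24, Iars by 0.25 and Sars by 0.27, and the list's median was -0.07. Most synthetases thus differed by less than could be called here, with Gars at -0.16 ± 0.06 (adjusted p = 0.0814).

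In a list of eIF2 kinases, their regulators and the subunits of eIF2 and of its exchange factor eIF2B, 2 of 13 fell and 2 rose, 15.4% each way and no more than over all genes (17.5% and 18.1%). Eif2ak2, the interferon-induced kinase PKR, rose by 1.37 ± 0.07 (adjusted p = 4.38e-07) and Impact, an inhibitor of the amino acid sensing kinase GCN2, by 0.32 ± 0.05. Eif2ak3, the endoplasmic reticulum kinase PERK, fell by 0.29, and Ppp1r15b, the constitutive phosphatase subunit, fell by 0.22. Eif2ak4, which encodes GCN2, changed by 0.03 ± 0.08 (adjusted p = 0.783).

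Of the further folate and glycine enzymes 3 of 13 fell (23.1%, against 17.5% of all genes) and 4 rose (30.8%, against 18.1%). Aldh1l2, the formyl-folate dehydrogenase that shares the mitochondria with Shmt2, fell by 0.64 (SE 0.08, adjusted p = 2.68e-04), as did the folate carrier Slc25a32 (-0.38 ± 0.12) and the glycine decarboxylase Gldc (-0.22 ± 0.06). Mthfs rose by 1.22 ± 0.06, the lysosomal hydrolase Ggh by 0.46 ± 0.04 and methionine synthase Mtr by 0.64 ± 0.11. Methionine and glutathione enzymes had 5 of 13 lower (38.5%) and 0 higher, among them Mpst (-0.72 ± 0.10), Gclm (-0.59 ± 0.08), a subunit of the enzyme that uses cysteine to start glutathione synthesis, and Ahcy (-0.26 ± 0.05). Among enzymes of glutamine, arginine and the branched-chain amino acids, 4 of 13 fell, including the asparagine-degrading Asrgl1 (-0.83 ± 0.07), the leucine transaminase Bcat1 (-0.80 ± 0.12) and Oat (-0.23 ± 0.04), and 2 rose, the arginase Arg1 (0.59 ± 0.08) and Prodh (0.18 ± 0.04).

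Among amino acid transporters outside the 34, 10 of 18 tested rose and 1 fell, with a median of 0.29, where 5 of the 7 tested transporters among the 34 fell. Slc15a3, a peptide and histidine carrier of lysosomes, rose from 5.45 to 8.47 (3.02 ± 0.11, adjusted p = 4.83e-08), the leucine carrier Slc43a2 by 1.22 ± 0.07 and the taurine carrier Slc6a6 by 0.68 ± 0.08, while Slc7a6 fell by 0.31. Genes through which mTORC1 senses amino acids had 9 of 24 higher and 4 lower. Rragd, a GTPase that recruits mTORC1 to lysosomes, rose from 4.60 to 5.93 (1.33 ± 0.06), Sesn1 by 0.75 ± 0.05 and Rragc by 0.51 ± 0.04, and Seh1l fell by 0.64, Tsc1 by 0.18 and Sesn3 by 0.32. The rises in both lists moved with the macrophage markers given above, and the part of those cells or their state was not tested.

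**Figure D4:**
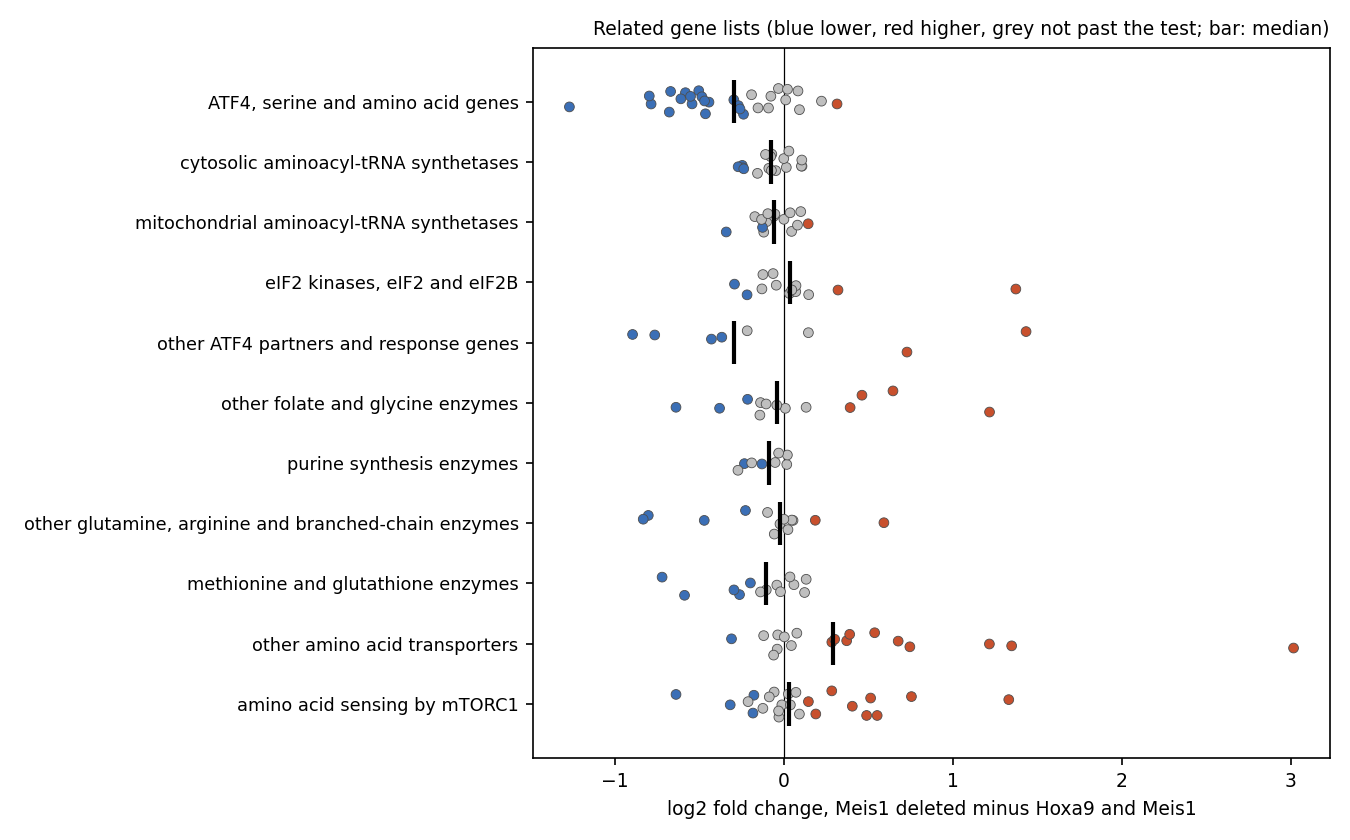
Log2 fold change (horizontal axis, Meis1 deleted minus Hoxa9 and Meis1) of each tested gene of the amino acid response (top row) and of 10 related lists, with black bars for the medians. The top row has its median at -0.30 with 18 blue points, whereas the other amino acid transporters have theirs at 0.29 with 10 red points.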

How the data were processed

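The table that the authors deposited holds a log2 value of each probe set for 8 biotin-labelled Affymetrix arrays made from 100 ng of total RNA each. The log2 scale was judged from the values (2.65 to 13.2), and the near-equal quantiles of the 8 arrays show a normalization between arrays. The submitters' processing notes list MAS5 with no version or role, so how probes were summarised stays unknown. No detection calls were used. Precision is limited by having 4 arrays a group.

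The values were used as deposited, without the offset planned for linear values. limma 3.58.1 (lmFit and eBayes, R 4.3.3) was fitted on the 27022 probe sets above the filter, and p-values of the probe sets that stand for genes were adjusted over 11836 genes. P-values of further probe sets were adjusted over all 27022. Of the probe sets 28898 had 1 symbol, 551 several and 15588 none. The procedure was tested on simulated data of the 11836 genes: of 50 genes each, it recovered 22 for a change of 0.25, 40 for 0.5, 48 for 1 and 50 for 2, and made 4 false calls. Only these genes were changed in the simulation, a far smaller share than passed in the data. The adjustment depends on that share, so these rates need not hold for the real arrays. Promoters come from RefSeq tables of GRCm38.p6, and plots were made in matplotlib 3.10.9 (Python 3.11.15).

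Groups were taken from the sample titles. The rule for named genes gave all members, values on every array for Atf4 and for members that passed with a change of at least 0.4, and up to 3 genes per direction of each related list. Per-array values of other members, and Gars and Eif2ak4, were added after their values were seen. The members and lists were chosen with earlier results of these data known. Arrays of the same replicate number did not vary together (correlations of 0.0252, 0.224, -0.131 and 0.289 between their deviations from the group means), so no pairing was assumed.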

Additional observations from a re-analysis of the deposited data

Results flagged for a closer look

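Among 58 sets of 4 arrays (29 genes in 2 groups), 3 held an array far from the rest of its group, where chance gives about 1 in 20. Phgdh read 7.95 on Meis1 deleted replicate 1, with 8.39 as the nearest other array of that group. Aldh18a1 read 6.80 on the same array, with 6.46 as the nearest, so this array was low for Phgdh and high for Aldh18a1. Slc38a2 read 10.46 on Hoxa9 and Meis1 replicate 1, with 10.52 as the nearest, a gap that is small beside its change of -0.47.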

How the results depend on the processing

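The count of lower members stayed between 13 and 21 in all 23 alternatives (18 in the main analysis), and was 16 to 19 with an array left out in turn, where 16 members were lower each time. With the replicate number as a block it was 17. The members' median of -0.30 was -0.20 with an offset of 64, -0.37 with no filter, -0.33 when probe sets were averaged per gene, -0.34 when arrays were weighted, -0.34 and -0.42 within the bioB sets of 5 and 3 arrays, and between -0.36 and -0.28 with an array left out. In an alternative chosen after seeing the data, which blocked on the bioB sets without Meis1 deleted replicate 1, it was -0.35. The count of higher members, 1 in the main analysis, was 2 with averaged probe sets, weighted arrays or that added alternative, 0 within the bioB set of 3, and 1 to 2 with an array left out. In all 2114 and 2158 genes changed within the bioB sets, against 4206, where fewer arrays were tested. Sign changes touched only genes that had not passed: Cbs (0.022 after averaging probe sets, 0.022 with weighted arrays, 0.071 within the set of 5), Slc6a9 (-0.17 after averaging probe sets, -0.013 within the set of 3) and Ddit3 (-0.088 within the set of 3). With an array left out Cbs ran from -0.079 to 0.014, Slc6a9 from -0.0022 to 0.052 and Ppp1r15a from -0.022 to 0.037. The cause of these shifts was not tested. The median of all genes moved by under 0.1 in each alternative.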

Other observations

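Purine synthesis, which consumes the glycine and formate that the serine route supplies, had 2 of 8 tested enzymes lower (25%, against 17.5% of all genes) and 0 higher, with a median of -0.09. The summed linear level of the list was 6228 to 6421 per array after the deletion and 6999 to 7084 before it, without overlap. That sum was not tested and is weighted towards genes with high values, among them Paics and Adss, which did not pass. Ppat, the first committed enzyme, fell by 0.23 (SE 0.05, limma adjusted p = 0.00311) and Gmps by 0.13. The other 6 did not pass and ranged from -0.27 ± 0.10 for Adss (adjusted p = 0.0545, without overlap) to 0.02 ± 0.08 for Pfas. Of 15 mitochondrial aminoacyl-tRNA synthetases 2 fell, Nars2 (-0.34 ± 0.06) and Lars2 (-0.13 ± 0.04), and Rars2 rose by 0.14 ± 0.05. Adss and Pfas are named as the ends of the range of purine enzymes and Paics for its weight in their sum, all chosen after their values were seen.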
